A study of Homo sapiens with 9 samples.

Results

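The 200 antisense long non-coding RNAs with the highest levels in scrambled-siRNA cells are described here across the 9 libraries of a TLX1 knockdown, each beside the protein-coding gene on the opposite strand. They were chosen by their mean level in the 3 scrambled libraries, in reads scaled to library size (CPM), among 5427 genes that GENCODE 29 types as antisense, of which 3024 antisense genes had a read in any library. ALL-SIL, the cell line used, is a human T-cell acute lymphoblastic leukaemia line. The cells were electroporated with TLX1 siRNA s46, with TLX1 siRNA s47 or with a scrambled siRNA that targets no gene, and were taken at 24 h, with 3 libraries per group. The labels give 400 nM for the scrambled siRNA and no dose for s46 or s47. All 3 groups are a single cell line, and no label says whether its replicates were separate cultures, and the spread behind each p-value may therefore be technical. The comparison asks which RNAs differ when TLX1, the homeobox oncogene of some cases of this leukaemia, is reduced.

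An antisense RNA is transcribed from the strand opposite another gene. Many start close to the start of the opposite gene and run away from it, since promoters can fire in both directions, and others lie within the gene body or cross its end. Some are known to act in cis on the opposite gene, some host microRNAs or small nucleolar RNAs in their introns, and for most no function is known.

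TLX1 was at 63.7, 87.3 and 78.6 CPM in the s46 libraries, at 63.5, 73.7 and 74.96 CPM in the s47 libraries and at 197.9, 188.0 and 171.2 CPM in the scrambled libraries. It fell by 1.34 ± 0.11 (SE) on the log2 scale for the mean of both siRNAs (edgeR adjusted p 0.000394). Except where stated, CPM values here and below are scaled by TMM, a normalisation that sets library sizes by the bulk of genes. Sense gene reads were 21134650 to 33393740 per library, with the fewest in scrambled replicate 1, and the antisense RNAs held 83517 to 115229 of them. Multimapping reads were 14.4% of all reads in that library and 6.36% to 7.34% in the other 8. Of 10 T-lineage markers, 9 were above 1 CPM in every library, while PTCRA reached at most 0.532 CPM. The T-lineage markers, which include the siRNA target TLX1, summed to 1123 to 1241 CPM in TLX1 siRNA libraries and to 1141 to 1310 CPM in scrambled ones. Single markers went both ways. CD3D averaged 382 CPM with TLX1 siRNA and 297 CPM with scrambled siRNA, and CD7 157 and 222 CPM. Of 4 B-cell markers, CD79A and CD79B were above 1 CPM throughout, and the 4 summed to 9.91 to 14.1 CPM in TLX1 siRNA libraries and 10.4 to 11.9 CPM in scrambled ones. No myeloid, erythroid, epithelial or fibroblast marker was above 1 CPM in every library, and HBA1 was at 0 in all 9.

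Several of the most expressed antisense RNAs enclose microRNAs on their own strand, and these mature sequences are shown because the host transcript carries them. The sequences are from RefSeq (GRCh38.p14), with the seed, bases 2 to 8, in capitals. DLEU2, a transcript of the region of chromosome 13 often deleted in chronic lymphocytic leukaemia, encloses MIR15A and MIR16-1, whose 5p products share a seed. AC004687.1 encloses MIR142, a microRNA of blood cells, and GABPB1-AS1 encloses MIR4712.
hsa-miR-15a-5p: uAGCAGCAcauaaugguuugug
hsa-miR-16-5p: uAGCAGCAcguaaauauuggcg
hsa-miR-142-5p: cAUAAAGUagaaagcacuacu
hsa-miR-142-3p: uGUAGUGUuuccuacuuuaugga
hsa-miR-4712-5p: uCCAGUACaggucucucauuuc
The libraries count host transcripts per gene and do not measure mature microRNAs.

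The 7-base word GCAGTAC, which was picked from earlier results of these data, occurred in the exons of 20 of the 200 antisense RNAs, among them 6 of the 10 most expressed. The word is shown in capitals with 10 bases on either side, 5′ to 3′ on the transcribed strand, from GENCODE 29 transcripts on GRCh38. The 4 sites lie at chr3:14943547-14943573 on the minus strand (FGD5-AS1), chr4:82893899-82893925 on the minus strand (THAP9-AS1), chr21:33969422-33969448 on the plus strand (LINC00649) and chr6:30305689-30305715 on the minus strand (HCG18), each within 1 exon.
FGD5-AS1: tacagatctgGCAGTACccagcccttg
THAP9-AS1: atttttcaggGCAGTACatttttctca
LINC00649: tggatttaagGCAGTACattttcagct
HCG18: acaaggcagaGCAGTACccccttatcc
THAP9-AS1 and C1RL-AS1 are the antisense RNAs whose 5′ ends lie head-to-head with a coding gene and whose difference between groups, given below, had the lowest p, so the start of each is also shown. The windows run from up to 250 bases before to 50 bases after the RefSeq start (GRCh38.p14), at chr4:82900867-82901082 on the minus strand (216 bases) and at chr12:7108058-7108357 on the plus strand (300 bases), with CG dinucleotides in capitals. The RefSeq start of C1RL-AS1 lies inside the GENCODE gene.
THAP9-AS1: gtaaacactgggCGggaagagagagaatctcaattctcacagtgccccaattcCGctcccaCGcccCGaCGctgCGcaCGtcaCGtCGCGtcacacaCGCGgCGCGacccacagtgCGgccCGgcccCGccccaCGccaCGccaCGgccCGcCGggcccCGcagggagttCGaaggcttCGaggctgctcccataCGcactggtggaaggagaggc
C1RL-AS1: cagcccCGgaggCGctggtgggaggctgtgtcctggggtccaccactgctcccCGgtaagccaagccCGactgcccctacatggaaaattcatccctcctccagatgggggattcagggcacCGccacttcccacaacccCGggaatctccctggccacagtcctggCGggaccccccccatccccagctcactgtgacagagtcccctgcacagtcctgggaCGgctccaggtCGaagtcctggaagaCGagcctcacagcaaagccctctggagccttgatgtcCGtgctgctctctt
The THAP9-AS1 window held 26 CG dinucleotides and the C1RL-AS1 window held 11. RefSeq windows matched 69 of the 200 antisense RNAs by symbol or gene ID, with a median of 24 CG dinucleotides against 14 in all 27305 windows of the table. The median was 29 in the 25 matched antisense RNAs head-to-head with the coding gene set beside them, and 22.5 in the other 44. On either strand, the RUNX motif TGTGGT was in 13.0% of the matched windows and 13.1% of all windows, the ETS motif CCGGAAG in 17.4% and 10.7%, and the homeobox motif TAATTG in 4.35% and 7.58%. None of the 3 motifs was in the 2 windows shown.

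In the CPM used for the ranking, by library total without TMM, the chosen RNAs ran from 289 CPM down to 4.38 CPM in scrambled cells. Their median was 9.14 CPM. Only 7 were at 100 CPM or more and 5 at 50 to 100 CPM, while 88 were at 5 to 10 CPM and 18 below 5 CPM. The 10 highest held 33.6% to 39.6% of all their reads, depending on the library. In the ranking CPM, AC015982.1 (4.48 CPM) and ZNF436-AS1 (4.38 CPM) were the last inside the rank limit. The next outside it were AC062029.1 (4.36 CPM) and MIR181A2HG (4.36 CPM). All 200 passed the low-count filter, with 44 reads as the lowest count in any library, and 848 other antisense genes passed it too. The 200 had a median exonic length of 2746.5 bases, against 1003 bases in those 848 genes. Ranking per exonic kilobase would have kept 131 of the 200, and ranking on the 6 TLX1 siRNA libraries 185. The chosen RNAs lie on 23 chromosomes, with 17 on chromosome 1, 15 each on chromosomes 2 and 6 and 1 on chromosome X.

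TRG-AS1 and FGD5-AS1 stood above all others in every library, and which of them was higher varied by library. TRG-AS1 (ENSG00000281103.1, chr7:38341577-38378804, plus strand), which lies across T-cell receptor gamma variable genes on the other strand, was at 212, 209 and 235 CPM with s46, at 184, 204 and 209 CPM with s47 and at 308, 255 and 275 CPM with scrambled siRNA. All 6 TLX1 siRNA libraries lay below all 3 scrambled ones. The log2 fold change was -0.42 ± 0.10 SE (edgeR adjusted p 0.0889), short of the 0.05 threshold. It was -0.34 (edgeR adjusted p 0.147) without scrambled replicate 1. Without scrambled replicate 2 the edgeR adjusted p was 0.0239, in a fit that called 10.1% of all genes. The difference was -0.35 ± 0.12 with s46 and -0.49 ± 0.12 with s47. Of the variable genes opposite TRG-AS1, TRGV5 had a log2 fold change of -1.27 ± 0.33 (edgeR adjusted p 0.119) and the pseudogene TRGV5P one of -1.53 ± 0.36 (edgeR adjusted p 0.0889), while TRGC1 and TRGC2, the constant genes of the locus, were at 0.00 and 0.13. Near-identical variable genes can lose reads to each other in counting, so the values of TRGV5 and TRGV5P are uncertain. Scrambled replicate 1 was the highest library for both, and without it TRGV5 was at -0.62 and TRGV5P at -0.68. Without scrambled replicate 2 both were called (edgeR adjusted p 0.0218 and 0.0170). TRGC2 was at 245 CPM in scrambled replicate 1, against 555 and 520.2 CPM in the other scrambled libraries, and without it TRGC1 was at -0.20 and TRGC2 at -0.16.

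FGD5-AS1 (ENSG00000225733.5, chr3:14920347-14948424, minus strand) was at 315, 286 and 290.1 CPM with s46, at 305, 285 and 301 CPM with s47 and at 204, 289 and 264 CPM with scrambled siRNA. Scrambled replicate 1 was the low value and the groups overlapped, with a log2 fold change of 0.23 ± 0.12 that was 0.10 without that library. Its partner FGD5, a guanine nucleotide exchange factor that it overlaps at the 3′ ends, was at 2.86 to 4.001 CPM in all 9 libraries, with a log2 fold change of 0.06 ± 0.18.

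In the next 5 by level the groups overlapped. DLEU2 was at 133, 109 and 123 CPM with s46, at 129, 120.4 and 110.1 CPM with s47 and at 115, 137 and 123 CPM with scrambled siRNA, a log2 fold change of -0.05 ± 0.11. GABPB1-AS1, head-to-head with the gene for a subunit of the ETS factor GABP, was at 0.02 ± 0.13 and had the other sign when library totals replaced TMM (-0.05). HCG18, head-to-head with the ubiquitin ligase gene TRIM39, was at -0.22 ± 0.12, PSMA3-AS1, opposite a proteasome subunit, at -0.05 ± 0.10 and THUMPD3-AS1 at -0.13 ± 0.10. THUMPD3, the tRNA methyltransferase gene that THUMPD3-AS1 spans, had a log2 fold change of 0.37 ± 0.10 (edgeR adjusted p 0.145). For THUMPD3 this was 0.30 (edgeR adjusted p 0.275) without scrambled replicate 1, and the edgeR adjusted p was 0.0293 without scrambled replicate 2.

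OTUD6B-AS1, LINC00649 and THAP9-AS1 completed the 10 highest. OTUD6B-AS1, head-to-head with a deubiquitinase gene, was at 88.4, 73.8 and 83.7 CPM with s46, at 91.1, 70.7 and 88.0 CPM with s47 and at 41.2, 84.5 and 70.8 CPM with scrambled siRNA. Its groups overlapped, with scrambled replicate 1 far below the rest, and the log2 fold change was 0.33 ± 0.18, or 0.090 without that library. LINC00649 was at 43.5, 42.1 and 51.1 CPM with s46, at 37.5, 46.8 and 48.1 CPM with s47 and at 81.3, 48.3 and 58.9 CPM with scrambled siRNA. Here scrambled replicate 1 was the high value, the groups overlapped, and the log2 fold change was -0.48 ± 0.15 (edgeR adjusted p 0.185). Leaving out scrambled replicate 1 gave -0.26, and leaving out scrambled replicate 2 gave -0.64, where it was called (edgeR adjusted p 0.0269).

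**Figure D1:**
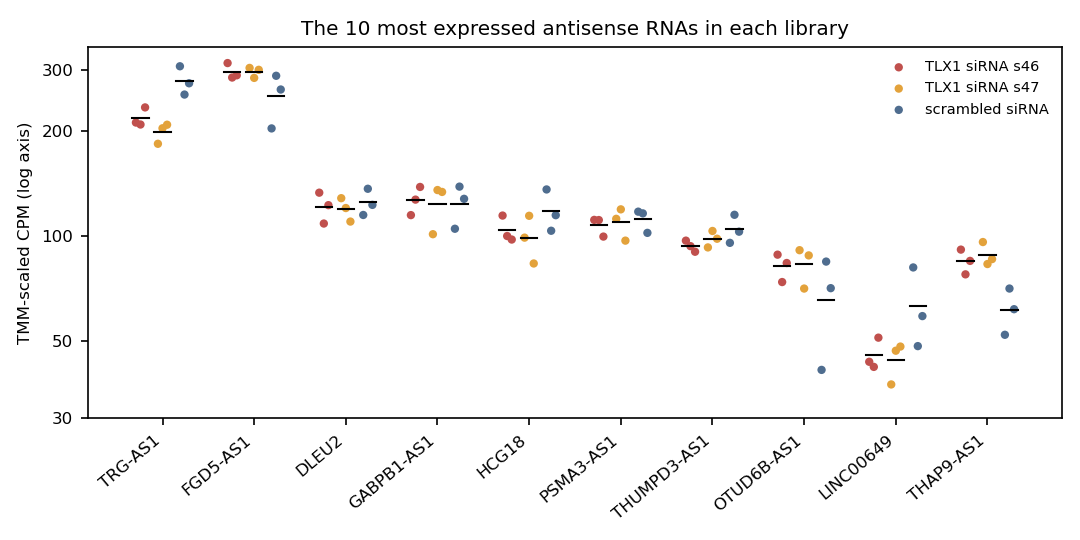
TMM-scaled CPM (log axis) of the 10 antisense RNAs with the highest scrambled level, with a dot for each library and a black bar for each group mean. TRG-AS1 has all 6 TLX1 siRNA dots below its 3 scrambled dots and THAP9-AS1 has them all above, while in the other 8 the groups overlap.

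No antisense RNA of the 200 passed the test with either siRNA or with both. For the mean of both siRNAs against scrambled, edgeR called 0 of the 200 and 0.566% of all 16072 genes tested, and the lowest adjusted p was 0.0889. DESeq2 called 6, or 3.0%, beside 3.53% of all genes: THAP9-AS1 was higher, and TRG-AS1, AL358781.1, C1RL-AS1, AC009948.1 and H1FX-AS1 were lower. The limma-voom test called 0, beside 0.61% of all genes. With s46 alone edgeR called 0, beside 0.174% of all genes, as did DESeq2 and limma-voom. With s47 alone edgeR called 0, beside 0.33%, while DESeq2 called 2 (THAP9-AS1 and TRG-AS1), beside 1.61% of all genes. Without scrambled replicate 2 the count for both siRNAs was 16, of which 15 were lower, and this 8.0% stands beside 10.1% of all genes. The scrambled libraries that chose the RNAs are an arm of these comparisons, so the counts are a description and nothing is read from them.

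At an unadjusted p under 0.05, 3 of the 200 were higher with TLX1 siRNA (1.5%, beside 7.27% of all genes) and 31 were lower (15.5%, beside 10.5%). All 34 had the same sign with s46 and with s47, which share the scrambled libraries. Leaving out scrambled replicate 1 gave 14 such RNAs (7.0%, beside 8.62% of all genes), and leaving out scrambled replicate 2 gave 58 (29%, beside 29.8%). With s46, 2 were higher and 23 lower at that p, 12.5% in all beside 11.9% of all genes. With s47, 3 were higher and 21 lower, 12% in all beside 12.3%. All 6 TLX1 siRNA libraries lay above all scrambled ones for 2 of the 200 (1.0%, beside 4.47% of all genes) and below them for 12 (6.0%, beside 3.65%).

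The 200 were chosen on the scrambled level, an arm of this comparison, so their medians are a description and nothing is read from the direction. Their median log2 fold change was -0.15, with quartiles at -0.30 and 0.02, against -0.03 for all genes tested, and 147 of 200 were below 0. Other antisense genes had a median of -0.19 and long intergenic non-coding RNAs (lincRNAs) one of -0.16, while protein-coding genes stood at 0.01. The RNAs made up 0.330% ± 0.0142 of gene reads with s46, 0.327% ± 0.0114 with s47 and 0.370% ± 0.0267 with scrambled siRNA (SD, n = 3 each). When they were instead ranked on the 6 TLX1 siRNA libraries, the median was -0.10. In such bulk RNA, fewer cells of a type and less RNA per cell cannot be told apart.

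These values varied with the scrambled library. The median deviation of the 200 from their means over 9 libraries was -0.07, -0.08 and 0.03 (log2) in the s46 libraries, -0.09, -0.02 and 0.02 in the s47 libraries and 0.19, -0.01 and 0.11 in the scrambled libraries. Scrambled replicates 1 and 3 stood above all TLX1 siRNA libraries and scrambled replicate 2 lay among them. Scrambled replicate 1 was the highest of 9 libraries for 46% of the 200, against 31.2% of all genes. Without it the median log2 fold change was -0.09, and without scrambled replicate 2 it was -0.20. The part of the higher multimapping share of scrambled replicate 1 in these values was not tested.

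**Figure D2:**
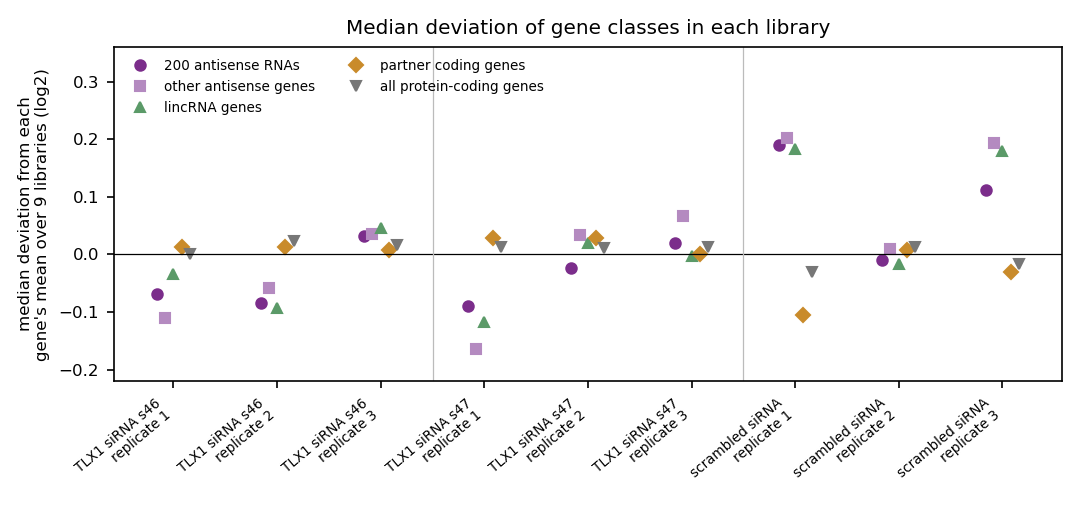
Median over each gene class of the log2 deviation from a gene's mean over 9 libraries, by library, with a symbol for each class. The 200 antisense RNAs, the other antisense genes and the lincRNAs sit highest in scrambled replicates 1 and 3, at 0.19 and 0.11 for the 200, and the partner coding genes sit lowest in scrambled replicate 1.

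Among the 3 antisense RNAs that were higher at an unadjusted p under 0.05, THAP9-AS1 had the clearest separation. THAP9-AS1 (ENSG00000251022.6, chr4:82893009-82900960, minus strand) was at 91.5, 77.6 and 84.9 CPM with s46, at 96.2, 83.1 and 85.9 CPM with s47 and at 52.0, 70.7 and 61.6 CPM with scrambled siRNA. Every TLX1 siRNA library exceeded every scrambled one, with a log2 fold change of 0.49 ± 0.12 (SE), or 0.39 without scrambled replicate 1. The DESeq2 adjusted p was 0.00955 and the edgeR adjusted p 0.0893. The edgeR value was 0.0189 without scrambled replicate 2, in a fit that called 10.1% of all genes. It was 0.125 to 0.225 without any other single library. THAP9, a gene derived from a DNA transposase whose 5′ end is 276 bases from that of THAP9-AS1, was at 27.6, 22.3 and 24.3 CPM with s46, at 26.2, 23.3 and 24.96 CPM with s47 and at 16.2, 23.4 and 21.3 CPM with scrambled siRNA. Its groups overlapped at scrambled replicate 2, with a log2 fold change of 0.29 ± 0.14, or 0.15 without scrambled replicate 1.

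The other 2 lie opposite a cell-cycle kinase and a sterol enzyme. AC002454.1 starts 111 bases from the start of CDK6, the kinase that drives entry into the cell cycle with D cyclins, and was at 23.2, 12.1 and 22.3 CPM with s46, at 27.3, 12.9 and 22.7 CPM with s47 and at 15.9, 11.6 and 13.4 CPM with scrambled siRNA. Replicate 2 of s46 and replicate 2 of s47 were within the scrambled range, and the log2 fold change was 0.56 ± 0.25 (edgeR adjusted p 0.274). CDK6 itself was at 2464 to 3043 CPM with TLX1 siRNA and at 2518 to 2852 CPM with scrambled siRNA, a log2 fold change of -0.02 ± 0.11. AP002387.1, which lies inside DHCR7, the last enzyme of cholesterol synthesis, was at 7.202, 6.18 and 7.47 CPM with s46, at 7.75, 6.77 and 6.98 CPM with s47 and at 4.66, 5.02 and 5.83 CPM with scrambled siRNA. All TLX1 siRNA libraries were above the scrambled ones, with a log2 fold change of 0.45 ± 0.16 (edgeR adjusted p 0.214), and DHCR7 was at -0.04 ± 0.15.

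The largest negative value belonged to MMP25-AS1 (chr16:3037403-3059370, minus strand), and it came mostly from 1 library. MMP25-AS1 was at 6.86, 5.21 and 4.70 CPM with s46, at 4.64, 4.39 and 4.75 CPM with s47 and at 36.7, 5.15 and 9.25 CPM with scrambled siRNA. Scrambled replicate 1 stood far above the others and scrambled replicate 2 lay within the s46 range, and the log2 fold change was -1.74 ± 0.50 (edgeR adjusted p 0.18). Leaving out scrambled replicate 1 gave -0.50, and leaving out scrambled replicate 2 gave -2.17, where it was called (edgeR adjusted p 0.0179). MMP25, a membrane-anchored matrix metalloproteinase of leukocytes, was at 15.7, 19.0 and 7.56 CPM with s46, at 13.2, 14.3 and 7.28 CPM with s47 and at 36.8, 27.5 and 12.4 CPM with scrambled siRNA. Its groups overlapped too, with a log2 fold change of -0.999 ± 0.363, or -0.64 without scrambled replicate 1.

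AL358781.1, AC009948.1 and H1FX-AS1 were below scrambled in every TLX1 siRNA library. AL358781.1, whose whole exonic sequence lies inside exons of PRRC2B on the other strand, was at 2.13, 4.69 and 3.10 CPM with s46, at 1.65, 5.02 and 2.86 CPM with s47 and at 7.97, 6.67 and 5.72 CPM with scrambled siRNA. The log2 fold change was -1.06 ± 0.31 (edgeR adjusted p 0.159), while PRRC2B was at 0.02 ± 0.19. AC009948.1 was at 22.6, 21.1 and 24.0 CPM with s46, at 23.4, 21.0 and 25.7 CPM with s47 and at 38.8, 28.0 and 29.6 CPM with scrambled siRNA. Its log2 fold change was -0.48 ± 0.13 (edgeR adjusted p 0.125) and that of PRKRA, an activator of the double-stranded RNA kinase PKR that it meets tail-to-tail, was 0.37 ± 0.12. This was the only pair in which antisense RNA and partner both had an unadjusted p under 0.05 with opposite signs. H1FX-AS1 was at -0.69 ± 0.20 and H1FX, a linker histone gene, at -0.31 ± 0.14. Without scrambled replicate 1 these were -0.43 and -0.053, and AC009948.1 was at -0.33. Without scrambled replicate 2, AC009948.1, H1FX-AS1 and H1FX were called (edgeR adjusted p 0.0299, 0.0486 and 0.0470).

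For SEPSECS-AS1, AC022893.1, CCDC183-AS1 and SLFNL1-AS1 the highest library was scrambled replicate 1. SEPSECS-AS1, head-to-head with the gene for the enzyme that makes selenocysteine on its tRNA, was at 6.10, 4.62 and 6.45 CPM with s46, at 6.06, 5.05 and 5.82 CPM with s47 and at 16.2, 5.76 and 8.59 CPM with scrambled siRNA. Scrambled replicate 2 lay among the TLX1 siRNA libraries, and the log2 fold change was -0.84 ± 0.26, with SEPSECS at 0.17 ± 0.12. AC022893.1, CCDC183-AS1 and SLFNL1-AS1 were at -0.82 ± 0.37, -0.80 ± 0.24 and -0.77 ± 0.27, and their groups overlapped as well. Without scrambled replicate 1 the log2 fold changes of SEPSECS-AS1, CCDC183-AS1 and SLFNL1-AS1 were -0.33, -0.41 and -0.31, and that of AC022893.1 was -0.0011. Without scrambled replicate 2, SEPSECS-AS1, AC022893.1 and CCDC183-AS1 were called (edgeR adjusted p 0.0201, 0.0402 and 0.0228).

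C1RL-AS1 and C1RL formed the pair in which the coding partner passed the test, and the pair is named here after its values were seen. C1RL was 1 of 157 partners tested, beside 0.566% of all genes and 86 of 11164 protein-coding genes called, so nothing is read from the count. C1RL-AS1 (chr12:7108052-7122501, plus strand) was at 10.02, 14.1 and 12.1 CPM with s46, at 8.72, 16.6 and 12.1 CPM with s47 and at 22.7, 17.6 and 20.8 CPM with scrambled siRNA. C1RL, a protease gene related to complement C1r, was at 4.76, 6.81 and 5.79 CPM with s46, at 5.84, 6.29 and 6.91 CPM with s47 and at 12.2, 8.96 and 10.97 CPM with scrambled siRNA. In both genes all TLX1 siRNA libraries lay below all scrambled ones. C1RL fell by 0.82 ± 0.16 (SE) on the log2 scale (edgeR adjusted p 0.0425), and C1RL-AS1 was at -0.73 ± 0.19 (edgeR adjusted p 0.112). C1RL-AS1 was at -0.64 (edgeR adjusted p 0.247) without scrambled replicate 1, and its edgeR adjusted p was 0.0334 without scrambled replicate 2. The adjusted p of C1RL was 0.0179 without scrambled replicate 2 and 0.0524 to 0.144 without any other single library, where the call was lost.

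**Figure D3:**
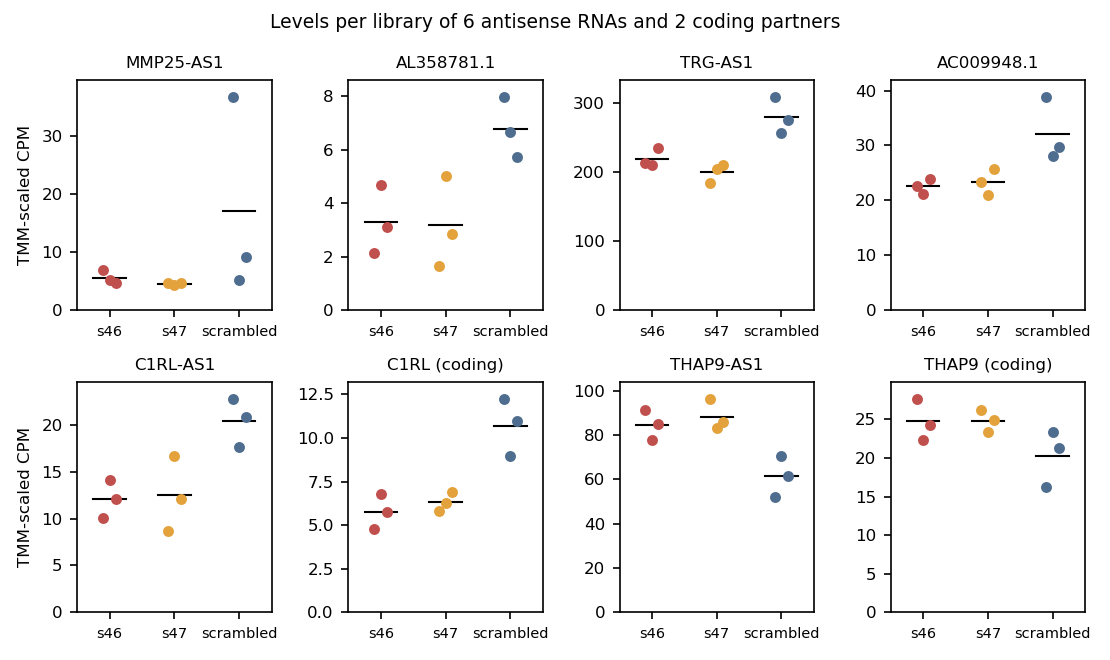
TMM-scaled CPM per library (dots) and group means (black bars) of 6 antisense RNAs and of the coding genes C1RL and THAP9, each panel with its own axis from 0. MMP25-AS1 has 1 scrambled dot at 36.7 CPM far above the rest, while AL358781.1, TRG-AS1, AC009948.1, C1RL-AS1 and C1RL have all TLX1 siRNA dots below the scrambled dots.

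Of the 56 characterised antisense and neighbouring RNAs listed with earlier results of these data known, 31 have the antisense type and 12 are among the 200. Their median log2 fold change was -0.06, beside -0.03 for all genes tested, with 5 above 0 and 7 below it, and none passed the test. MCM3AP-AS1, tail-to-tail with the gene for the mRNA export factor GANP, was the 1 at an unadjusted p under 0.05. It was at 14.5, 17.5 and 19.2 CPM with s46, at 15.8, 20.8 and 19.3 CPM with s47 and at 26.9, 21.1 and 22.5 CPM with scrambled siRNA. All TLX1 siRNA libraries were below the scrambled ones, with a log2 fold change of -0.40 ± 0.14 (edgeR adjusted p 0.213), beside -0.15 ± 0.10 for MCM3AP. Of the others, ZFAS1, a host of small nucleolar RNAs, was at 0.07 ± 0.16 and NNT-AS1 at -0.13 ± 0.11. TMPO-AS1, beside the gene for lamina-associated polypeptide 2, was at -0.20 ± 0.15. ZEB1-AS1, head-to-head with a zinc-finger repressor gene of T-lineage cells, was at 0.01 ± 0.19, with ZEB1 at 0.28 ± 0.11. ITGB2-AS1, opposite the leukocyte integrin chain CD18, was at -0.20 ± 0.27, SBF2-AS1 at 0.12 ± 0.16, TRAF3IP2-AS1 at -0.07 ± 0.16 and PAXIP1-AS2 at -0.08 ± 0.16.

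Grouped by what the assigned partner encodes, no group of antisense RNAs had a called change. The 11 antisense RNAs opposite zinc-finger genes had a median log2 fold change of 0.01, with 6 above 0, 5 below it and none at an unadjusted p under 0.05. The 4 opposite T-cell and blood regulators (TRAF3IP2 in 2 of them, TOX and ITGB2) had a median of 0.03, and none was at that p. The 4 opposite cell-cycle and repair genes had a median of -0.24, with AC002454.1 higher and MCM3AP-AS1 lower at that p. The 2 opposite RNA-processing genes and the 2 opposite chromatin genes both had a median of -0.24, and no assigned partner was a mitochondrial gene of the list. Opposite genes that were not the assigned partner were left out, such as the listed ATP5PO opposite LINC00649 and SETD5 opposite THUMPD3-AS1. The same median was -0.03 over all genes tested.

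Among the antisense RNAs that enclose microRNAs on their own strand, AC004687.1 was at an unadjusted p under 0.05. It was at 43.9, 50.8 and 53.7 CPM with s46, at 37.9, 50 and 48.2 CPM with s47 and at 63.1, 51.1 and 63.3 CPM with scrambled siRNA. Scrambled replicate 2 was within the TLX1 siRNA range, and the log2 fold change was -0.32 ± 0.12 (edgeR adjusted p 0.234). ENTPD1-AS1, RAB11B-AS1 and MIR762HG, which enclose MIR3157, MIR4999 and MIR762, were at -0.03 ± 0.16, -0.11 ± 0.19 and 0.18 ± 0.17. The 20 carriers of GCAGTAC had a median of -0.11, with 1 higher and 2 lower at an unadjusted p under 0.05, and the 180 others a median of -0.15. Carriers were longer, with a median exonic length of 5703 bases against 2567.5 bases.

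The comparison of s46 with s47, which uses no scrambled library and took no part in the choice of RNAs, found no difference past the test. No gene of 16072 was called (0.0%), and at an unadjusted p under 0.05 there were 0 of the 200, beside 0.703% of all genes. DESeq2 and limma-voom called 0 of the 200 as well. The median log2 difference was -0.01, with a range of -0.30 to 0.42. SCOC-AS1, inside the gene for a Golgi coiled-coil protein, had the smallest p and was at 5.41, 4.31 and 4.94 CPM with s46 and at 2.77, 4.196 and 3.99 CPM with s47, and the groups did not overlap. Its log2 difference was 0.42 ± 0.22 (SE; edgeR adjusted p 1). AC027307.2, AC008105.3 and NOP14-AS1 followed in order of p, at log2 differences of -0.29 ± 0.19, 0.23 ± 0.15 and 0.27 ± 0.19. The median coefficient of variation of the 200 was 12.8% in s46, 12.5% in s47 and 17.2% in scrambled libraries, against 12.9%, 12.4% and 19.8% over all genes.

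Most of the 200 face a coding gene. A partner was assigned to 188, of which 169 overlap it and 19 have a 5′ end within 5 kb of its 5′ end, and 159 pairs with 157 different coding genes could be tested. The arrangement was head-to-head (5′ ends within 2 kb) for 73, tail-to-tail for 49, inside the partner for 35, spanning it for 16 and overlapping in the 5′ parts for 13, and 2 were near without overlap. These arrangements refer to the assigned partner only, and some RNAs outside the head-to-head class start near another opposite-strand coding gene. FGD5-AS1 starts 840 bases from the start of NR2C2, and PSMA3-AS1 251 bases from that of ARID4A. With the nearest 5′ end within 2 kb as the rule, 108 pairs could be tested. Exons of antisense RNA and partner overlapped in 138. Another coding gene on their own strand overlaps 13 of the 200, and reads there cannot be assigned with certainty.

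Per exonic kilobase, the antisense RNA was usually the lower of the pair. The ratio of antisense RNA to partner over all libraries had a median of 0.407, and 46 of the 159 antisense RNAs exceeded their partner. Of the head-to-head pairs 9 of 72 did, with a median ratio of 0.312, and of the RNAs inside their partner 17 of 30 did, with a median ratio of 1.57. The median ratio of the 36 tail-to-tail pairs was 0.587. In the 5 pairs with the highest ratios the coding gene was at most 4.001 CPM in any library. AC027307.2 was 270.4 times the level of APC2, a relative of the tumour suppressor APC in neurons, and TTN-AS1 was 214 times that of TTN, the giant sarcomere protein of muscle. AC020571.1 was 144 times HECW2, FGD5-AS1 131 times FGD5 and AL355488.1 101 times SLC16A4. The lowest ratios were those of AC011603.2 to TUBA1B, an alpha-tubulin gene, at 0.00840, AZIN1-AS1 to AZIN1 at 0.0104, H1FX-AS1 to H1FX at 0.0131, C10orf25 to ZNF22 at 0.0259 and NOP14-AS1 to NOP14 at 0.0305.

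**Figure D4:**
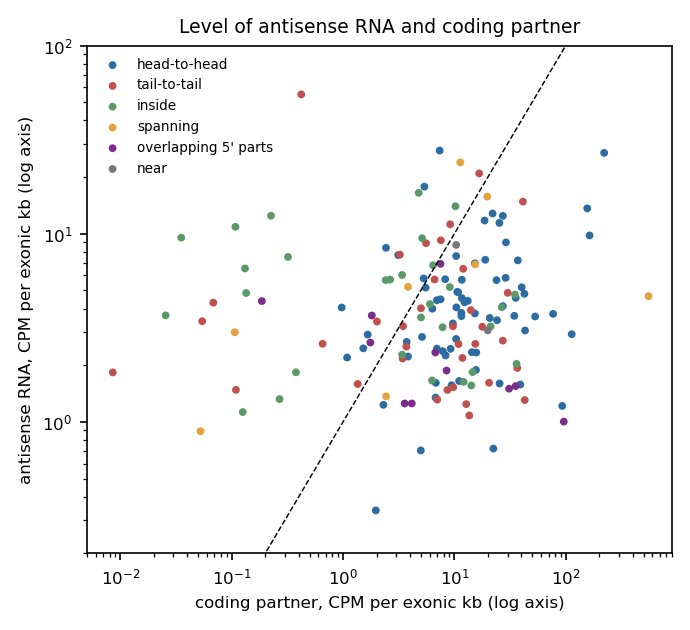
Level of each antisense RNA against that of its coding partner, both in TMM-scaled CPM per exonic kilobase on log axes, for 159 pairs coloured by arrangement. The dashed line marks equal levels, and 46 of the 159 pairs lie above it, from 9 of 72 head-to-head pairs to 17 of 30 antisense RNAs inside their partner.

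Reads of a coding gene that are assigned to the wrong strand would count toward an antisense RNA that overlaps its exons. In coding genes with at least 1000 sense reads and no annotated gene on the other strand, the median share of reads on the wrong strand was 0.129% to 0.222% by library. Expected wrong-strand reads were estimated at that rate, with partner reads taken as even over its exons and only the overlapping part counted. They came to 16.3% of the reads of AC011603.2, and to 1.25% of AL358781.1 and 1.30% of H1FX-AS1. Of the 137 pairs with overlapping exons whose partner has counts, AC011603.2 was the 1 above 5%.

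The partners were not chosen on their own scrambled levels, so their values are set beside those of the antisense RNAs without a test. The 157 partners had a median log2 fold change of 0.06, beside 0.01 for all protein-coding genes tested and -0.15 for the 200 antisense RNAs. Over the 159 pairs, 19 partners were higher and 19 lower at an unadjusted p under 0.05. At that p 7.27% of all genes were higher and 10.5% lower. The signs matched in 89 of 159 pairs. Both members of a pair were at an unadjusted p under 0.05 in 4 pairs, with the same sign in 3. Across the 159 pairs, which share the same 9 libraries, the log2 fold changes correlated at Pearson r 0.30 (Spearman rho 0.29). This r was 0.18 without scrambled replicate 1 and -0.03 in pairs whose exons do not overlap. For s46 against s47 it was -0.04.

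By arrangement, head-to-head antisense RNAs had a median log2 fold change of -0.06, with matching signs in 44 of 72 pairs. The tail-to-tail RNAs had a median of -0.16, those inside the partner -0.20, those spanning it -0.15 and those overlapping in the 5′ parts -0.30. The 12 without a partner had a median of -0.27. At an unadjusted p under 0.05, beside 7.27% of all genes higher and 10.5% lower, 2 head-to-head RNAs were higher and 4 lower, and 0 tail-to-tail RNAs were higher and 10 lower. Of the 35 inside their partner 1 was higher and 6 lower, of the 13 overlapping in the 5′ parts 6 were lower, of the 12 without a partner 5 were lower, and none of the 16 spanning theirs or of the 2 near without overlap was at that p. Pearson r over pairs was 0.33 for head-to-head, 0.25 for tail-to-tail, 0.08 for inside and 0.77 over only 8 spanning pairs (Spearman rho 0.52). It was 0.71 over 11 pairs overlapping in the 5′ parts, one of which is MMP25-AS1 with MMP25, while Spearman rho over these 11 was 0.15.

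**Figure D5:**
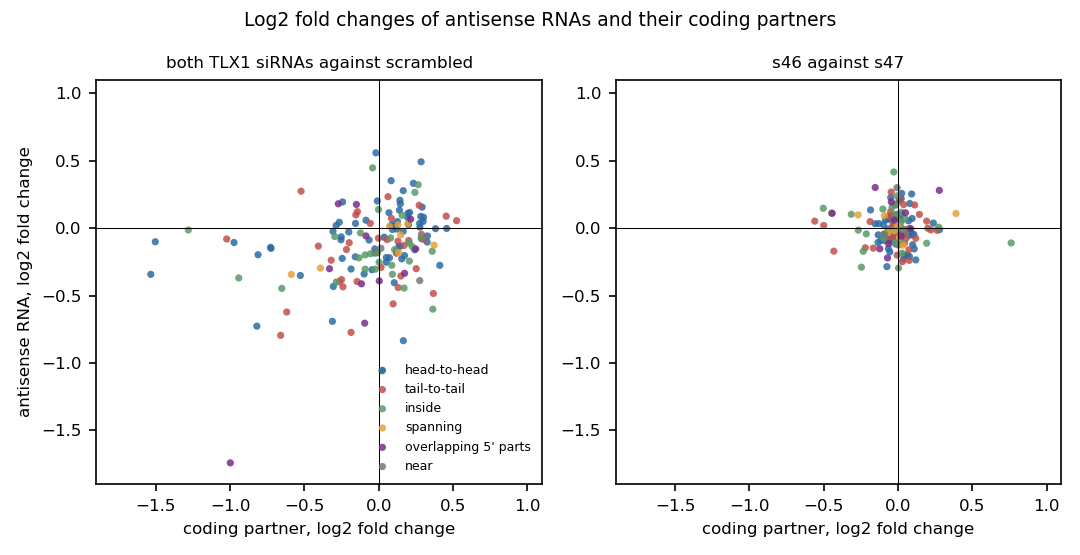
Log2 fold change of each antisense RNA against that of its coding partner for 159 pairs coloured by arrangement, for s46 and s47 together against scrambled siRNA (left) and for s46 against s47 (right). In the left panel the points spread to -1.74 for the antisense RNA and -1.53 for the partner, with r 0.30, and in the right panel r is -0.04.

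In 4 of the 5 pairs in which the antisense RNA stood furthest above its partner in log2 fold change, scrambled replicate 1 was the partner's highest library by a wide margin. ZBED3-AS1 was at -0.10 ± 0.21 and ZBED3 at -1.50 ± 0.53, and this partner had 50.1 CPM in scrambled replicate 1 against 6.502 and 11.3 CPM in the other scrambled libraries. SRRM2, a splicing factor gene, was at 207, 174 and 141 CPM with s46, at 204, 224 and 142 CPM with s47 and at 1167, 168 and 245 CPM with scrambled siRNA, a log2 fold change of -1.53 ± 0.51, while SRRM2-AS1 was at -0.34 ± 0.23. RAB11B, a recycling-endosome GTPase gene, was at 11.1, 13.2 and 11.2 CPM with s46, at 11.2, 13.8 and 10.5 CPM with s47 and at 41.2, 13.6 and 15.1 CPM with scrambled siRNA. RAB11B-AS1 was at 3.51 to 5.27 CPM with TLX1 siRNA and 4.22 to 5.37 CPM with scrambled siRNA. AC004943.2 was at -0.08 ± 0.22, with its partner ZFHX3 at -1.02 ± 0.43 and 44.7 CPM in scrambled replicate 1. AL355488.1 was at -0.01 ± 0.16, and SLC16A4, a transporter gene, at -1.28 ± 0.51 and at most 0.7705 CPM in any library. Without scrambled replicate 1, ZBED3 was at -0.16, SRRM2 at -0.18, RAB11B at -0.28 and ZFHX3 at -0.031, while SLC16A4 was at -1.36. Without scrambled replicate 2, ZBED3, SRRM2, RAB11B and ZFHX3 were called, at -1.94, -1.95, -1.24 and -1.43 (edgeR adjusted p 0.0240 to 0.0417).

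The opposite order was found in AL358781.1, SEPSECS-AS1, AC009948.1 and MMP25-AS1, described above, and in AC120053.1. AC120053.1 was at 3.696, 3.33 and 3.35 CPM with s46, at 3.97, 3.78 and 3.19 CPM with s47 and at 6.63, 3.23 and 6.35 CPM with scrambled siRNA. Scrambled replicate 2 lay among the TLX1 siRNA libraries. The log2 fold change was -0.60 ± 0.22 (edgeR adjusted p 0.226), beside 0.36 ± 0.18 for FAM92A, the gene that holds it. For AC120053.1 it was -0.43 (edgeR adjusted p 0.665) without scrambled replicate 1. Without scrambled replicate 2 the edgeR adjusted p of AC120053.1 was 0.0240.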

How the data were processed

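Raw counts of reads per gene were deposited by the authors for each library, on the build GRCh38 according to the submitters' processing notes. For the aligner, the counter and the annotation, the sources used here give no names. Libraries were stranded total RNA depleted of ribosomal RNA, per the labels' protocols. Each deposited file holds 3 count columns (unstranded and 1 per strand), of which the sense column was used. Lines that name no gene were left out: unmapped (4.52% to 6.70% of reads), multimapping, outside genes (23.8% to 36.8%) and ambiguous (2.12% to 4.44%).

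Of 58096 gene IDs, 57492 matched GENCODE 29, which gave symbols, types and coordinates. edgeR 4.0.16 (R 4.3.3) fitted all 9 libraries in a robust quasi-likelihood model with the group as the only term, TMM scaling and filterByExpr (minimum count 10). Benjamini-Hochberg adjustment ran over 16072 genes, with a threshold of 0.05, and the fit was tested on simulated data. SE was derived from F. DESeq2 1.42.0 and limma-voom (limma 3.58.1) were alternatives. The partner is the opposite-strand coding gene with the largest overlap, or the nearest 5′ end within 5 kb.

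The RNAs, gene lists and the word were chosen with earlier results of these data known. Named are the 10 highest, up to 6 of the largest differences each way at an unadjusted p under 0.05, the 4 smallest p for s46 against s47, the rank limit, extreme pairs and characterised RNAs. Precision is limited by counting, with at least 44 reads per RNA and library, and by 3 libraries per group.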

Additional observations from a re-analysis of the deposited data

How the results depend on the processing

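The log2 fold change of TLX1 kept its direction and call under all alternatives, and no alternative called a member of the 200 for s46 against s47. With library totals in place of TMM, 47 of the 200 were lower at an unadjusted p under 0.05 (31 with TMM) and GABPB1-AS1 was at -0.047. The median log2 fold change over all genes was then -0.093, against -0.027 with TMM, and the share of all genes lower at that p was not computed. Without the low-count filter the numbers of the 200 called were 9 for both siRNAs (4.5%, beside 2.8% of all genes), 3 for s46 and 5 for s47. The shares of all genes called were 1.23% for s46 and 1.38% for s47. In that setting 7 partners were called for both siRNAs, and the pair correlation was 0.12. AL355488.1 was at 0.010, against 0.022 with unstranded counts. DESeq2 called 6 of the 200 for both siRNAs and 2 for s47, beside 3.53% and 1.61% of all genes, and 3 partners for both siRNAs. Replicate numbers were not taken as pairs for both siRNAs, since no label ties them and 1 of 9 same-numbered pairs, s47 with scrambled at number 2, had no positive correlation (-0.023). The other 8 were at 0.20 to 0.43 and different numbers at -0.31 to 0.17, with 14 of 18 below 0. Against each other group, a library correlated best with its own number in 16 of 18 cases, a hint from the data that is not in the design. With the number as a block, 0 of the 200 were called in any comparison and 2 partners for both siRNAs, and 42 of the 200 had an unadjusted p under 0.05. Without the 3 libraries numbered 1 that count was 10, with 7 lower, the median was -0.070, 0 partners were called and the pair correlation was 0.22. ZBED3-AS1 was then at 0.092, SRRM2-AS1 at 0.077, AC004943.2 at 0.072, RAB11B-AS1 at 0.079 and AC022893.1 at 0.023. For the counts with the block and without number 1 no share over all genes was computed, so nothing is read from them. Leaving out each library in turn gave 0 to 16 of the 200 called for both siRNAs, 0 to 3 for s47, 14 to 58 at an unadjusted p under 0.05 (2 to 5 higher, 10 to 53 lower), 0 to 22 partners called and a pair correlation of 0.18 to 0.32. The same ranges were -0.090 to 0.11 for GABPB1-AS1, -0.11 to 0.21 for AL355488.1, -0.34 to 0.10 for AC004943.2, -0.10 to 0.00080 for PSMA3-AS1, -0.53 to 0.014 for SRRM2-AS1 and -0.11 to 0.025 for DLEU2. The counts of 16, 58 and 22 came without scrambled replicate 2, where for both siRNAs edgeR called 10.1% of all genes and 29.8% were at that unadjusted p. The count of 3 for s47 came from that setting too. No share over all genes was computed for it, so nothing is read from it. Ranking on the 6 TLX1 siRNA libraries, on 300 genes or per exonic kilobase gave 5 higher each, with pair correlations of 0.25 for 300 genes and 0.16 per kilobase. The top 100 held 18 at that p, 16 of them lower, with a correlation of 0.38. Beside these rankings, 7.27% of all genes were higher and 10.5% lower at that p. The pair correlation was -0.033 in pairs without exon overlap and 0.22 with the partner taken by the nearest 5′ end within 2 kb, an alternative chosen after seeing the data. The cause of each of these shifts was not tested.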
